A study of Mus musculus with 48 samples.

Results

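Trh and Calca, the genes of a pair of peptide hormone precursors, were followed across 48 single mouse cells. They are 2 of the 23284 gene symbols in the table, and both were selected on their measured values in these same cells (detection, level, concentration in few cells and correlated genes), so these are described without a test. The cells are derivatives of embryonic stem cells of strain 129P2/OlaHsd with an inducible Mesp1, a basic helix-loop-helix factor of nascent cardiovascular mesoderm. They differentiated in suspension as aggregates called embryoid bodies, which received 500 ng/ml doxycycline starting on day 2.25 and ending on day 3.25. Harvest was on day 4, and live cells, negative for propidium iodide, were sorted for single capture on a Fluidigm C1 device. All cells belong to 1 group labelled as Mesp1-induced mesoderm. No uninduced cells and no separate culture are named, so the group stands as 1 sample. Levels are in FPKM, a unit that divides a gene's fragments by its length and by the library's size, and detection means 1 FPKM or more. Mesp1 was detected in 30 cells (median 7.66 FPKM), and the mesoderm genes Pdgfra, Hand1 and T in 31, 26 and 26 cells. Between 4788 and 7010 genes were detected per cell (median 6212). The summed FPKM of a cell ran from 480821 to 12864440. Rows of short RNAs made up from 2.22% of it in cell C70 to 96.6% in cell C90.

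Peptide hormones are made as longer precursors, which proprotein convertases cut at pairs of basic residues and which trimming and amidating enzymes finish. Trh encodes the precursor of thyrotropin-releasing hormone, a tripeptide known from the hypothalamus, where it controls the release of thyrotropin from the pituitary. In the mouse embryo its transcript is also known from definitive endoderm. Calca encodes calcitonin, the hormone of thyroid C cells, and by alternative splicing calcitonin gene-related peptide, a vasodilator released by sensory neurons. The table holds 1 row for each gene, so these alternative products of Calca are not separated.

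Trh (ENSMUSG00000005892.4) lies on chromosome 6 of GRCm38 at chr6:92242061-92244650 and Calca (ENSMUSG00000030669.13) on chromosome 7 at chr7:114631478-114636357, both on the minus strand. The promoter windows of the RefSeq annotation of GRCm38.p6, from 250 bases before to 50 bases after the start of each gene, are shown because the transcripts were found in the same cells. Both read 5′ to 3′ on the minus strand. Capitals mark TGACCTCA, a variant of the cAMP response element.
Trh, chr6:92244601-92244900: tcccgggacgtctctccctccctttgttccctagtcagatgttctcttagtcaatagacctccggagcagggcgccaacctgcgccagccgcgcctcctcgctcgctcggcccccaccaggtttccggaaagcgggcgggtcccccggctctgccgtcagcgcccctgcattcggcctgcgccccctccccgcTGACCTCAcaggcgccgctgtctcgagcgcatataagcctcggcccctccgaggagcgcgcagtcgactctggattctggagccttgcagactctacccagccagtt
Calca, chr7:114636308-114636607: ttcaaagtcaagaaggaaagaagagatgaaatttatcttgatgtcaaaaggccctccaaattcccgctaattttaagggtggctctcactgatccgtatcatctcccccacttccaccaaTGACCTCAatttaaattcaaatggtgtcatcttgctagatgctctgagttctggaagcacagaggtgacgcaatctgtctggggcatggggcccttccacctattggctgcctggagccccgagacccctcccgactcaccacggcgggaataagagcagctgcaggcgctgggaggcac

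Each window held TGACCTCA once on the printed strand, starting at position -57 in Trh and at position -130 in Calca, counted from the first base of the gene. The motif, or its reverse complement TGAGGTCA, was present in 2.17% of 32851 promoter windows of the same length. The palindromic form TGACGTCA (1.79% of windows) and the TATA box letters TATAAA (13.6% of windows) were found in neither on either strand. Only these exact letters were searched. The Trh window holds the similar letters TATAAG, so the lack of TATAAA does not show that a TATA box is lacking. CCAAT was found in Calca at position -134, where its last base is the first of TGACCTCA, and on the complementary strand at position -28. It was not found in Trh, and 37.4% of windows held it. The Trh window had a GC content of 67% and the Calca window of 51.3%, beside a median of 52.7% over all windows. These motifs were chosen with the sequences in view, and a match of letters is not a measured binding site.

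Trh was detected in 35 of 48 cells (72.9%, exact Clopper-Pearson 95% interval 58.2% to 84.7%, which covers counting error only). Its lowest, median and highest values over the 48 cells were 0, 37.7 and 2985 FPKM. The level was therefore spread over a wide range: 9 cells listed the gene at 0, 30 reached 10 FPKM, 17 reached 100 FPKM and 3 exceeded 1000 FPKM. Between the detected and the undetected cells lay a gap. The 4 values above 0 but below 1 FPKM ran from 0.283 to 0.360 FPKM, and the lowest detected value was 3.27 FPKM in cell C51. The 4 low values stood between percentiles 13.05 and 19.3 of all values above 0 in their own cells.

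Much of the summed Trh signal came from few cells. Cells C38, C39 and C79 had 2985, 2407 and 2304 FPKM, and the next cell, C33, had 627 FPKM. These 3 cells held 60.8% of the sum over all cells, and the highest cell alone held 23.6%. Among the 845 other genes detected in 33 to 37 cells, short RNA rows left out, the median share of the 3 highest cells was 26.5%. Trh had a higher share than any of these genes. It also had the highest maximum among them, and 1 of them had a higher mean.

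Calca was detected in 14 of 48 cells (29.2%, exact Clopper-Pearson 95% interval 16.95% to 44.1%) and listed at 0 in the other 34. Its lowest, median and highest values over all cells were 0, 0 and 136 FPKM. No cell had a value between 0 and 1 FPKM. In the 14 cells the lowest value was 7.77 FPKM and the median 39.3 FPKM, and 13 of them were above 10 FPKM. The highest values were 136 FPKM in cell C93, 131 FPKM in cell C65 and 75.3 FPKM in cell C45.

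Calca was not concentrated in the way Trh was. Its 3 highest cells held 46.4% of the sum. The median share of the 3 highest cells was 50.1% for the 1131 other genes detected in 12 to 16 cells, and 760 of them had a larger share than Calca. Its level was high for a gene in so few cells, since 10 of the 1131 had a higher mean and 31 a higher maximum (their median maximum was 31.3 FPKM). Calca was thus listed at 0 in most cells, and no single cell dominated its sum.

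**Figure D1:**
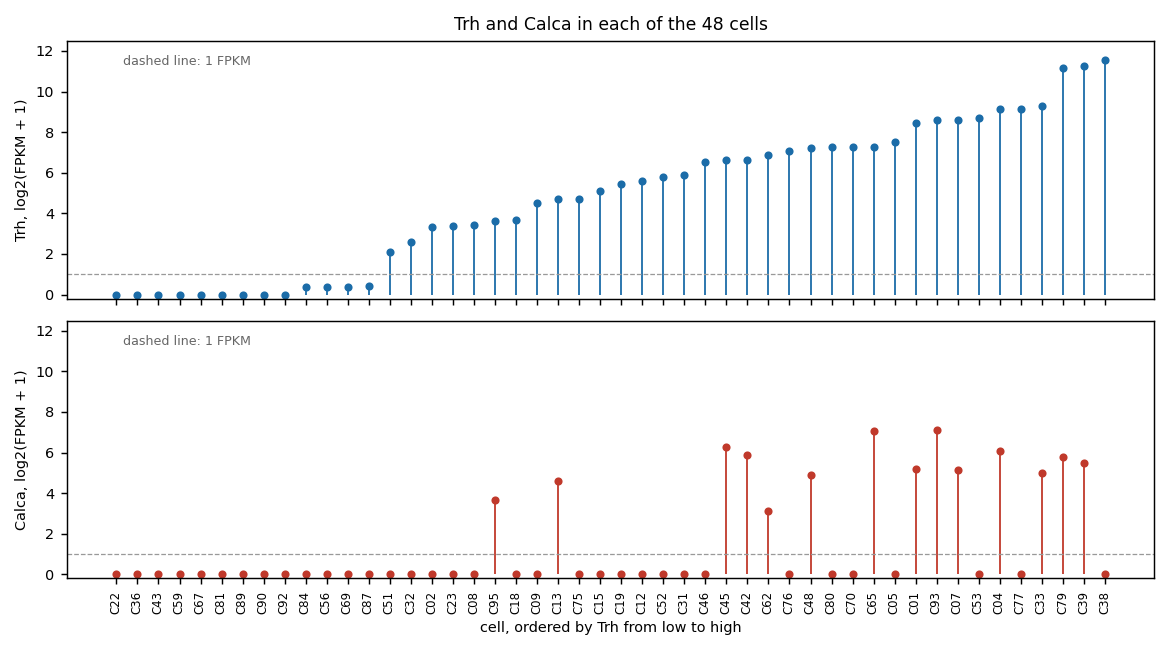
Levels of Trh (top) and Calca (bottom) in each of the 48 cells, as log2(FPKM + 1), with cells in the same order in both panels, from low to high Trh. The dashed lines mark 1 FPKM. The 3 cells at the right end stand above all others in Trh, and the 14 cells with Calca all lie among the 35 cells with Trh.

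All 14 cells with Calca also had Trh. The reverse did not hold, since Calca was found in 40% of the 35 cells with Trh (exact Clopper-Pearson 95% interval 23.9% to 57.9%). In 21 cells Trh was detected without Calca, in 0 cells Calca without Trh, and in 13 cells neither. Of the 1131 other genes detected in 12 to 16 cells, 11 (0.973%) were likewise found in no cell without Trh, among them Foxa2 and Sema4b.

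Calca was found more often where Trh was high. It was detected in 10 of the 17 cells with at least 100 FPKM of Trh, in 4 of the 18 cells with Trh from 1 to 100 FPKM, and in none of the 13 cells below that. The groups of cells nonetheless overlapped in Trh. The 14 cells with both genes had Trh from 11.5 to 2407 FPKM (median 254 FPKM), and the 21 cells with Trh alone from 3.27 to 2985 FPKM (median 47.5 FPKM). The cell with the most Trh, C38, listed Calca at 0.

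Within the 14 cells the ratio of Calca to Trh, both per length, varied widely, with a median of 0.156 and a range from 0.0181 to 1.003. Calca was the higher in 1 cell, C95, with 11.52 FPKM of Calca and 11.49 FPKM of Trh. Over all 48 cells Spearman's rho between Trh and Calca was 0.56 and Pearson's r of log2(FPKM + 1) was 0.56. Over the 35 cells with Trh, rho was 0.46 and r 0.46, and over the 14 cells with both, rho was 0.30 and r 0.40. The difference between these values was not tested. No p-value is given, because the cells share 1 preparation and device and are not independent samples.

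The relation was seen in both parts of the device. Each cell's number was taken to be its position on the device, an assumption, since no label says so. For the 25 cells with numbers up to 48 the rho between Trh and Calca was 0.63, and for the 23 with higher numbers 0.48. Trh itself was detected in 22 of 25 cells at sites up to 48 and in 13 of 23 at higher sites, and Calca in 9 of 25 and 5 of 23. The 7 cells with the fewest detected genes all had numbers of 84 or more. Without them Trh was detected in 80.5% of cells and Calca in 29.3%. Trh had rho = 0.30 with the number of detected genes and -0.20 with the site number, and Calca had 0.18 and -0.062. After regression on the number of detected genes the rho between Trh and Calca was 0.54, and without the 2 cells highest in Trh it was 0.58.

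**Figure D2:**
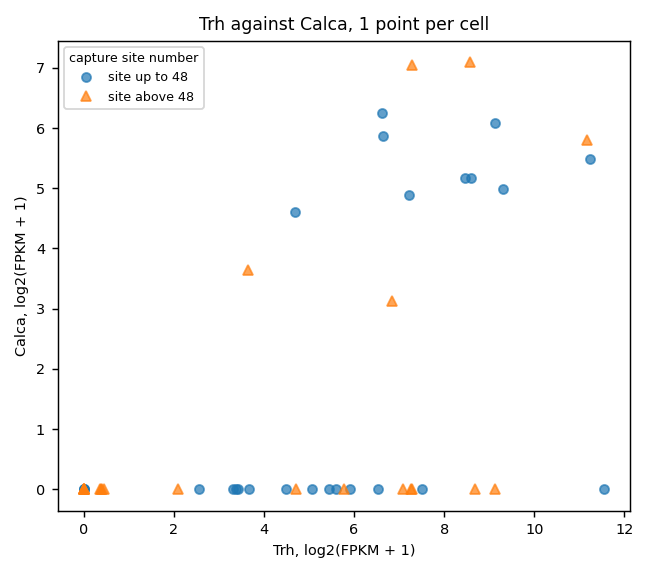
Calca against Trh, both as log2(FPKM + 1), with 1 point per cell and the capture site shown by shape. Points with Calca lie at Trh values of 11.5 FPKM or more, while points on the lower axis span the whole range of Trh. Several points at the origin overlap.

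Genes for making and receiving these peptides were examined next. Among the 12 processing enzymes 4 reached detection in 25% of cells, a mark reached by 37% of the 22499 symbols other than short RNAs. Furin, a convertase of the constitutive secretory route, was detected in 32 cells (median 1.39 FPKM) and Pam, which amidates peptide ends, in 32 cells (median 2.14 FPKM). Cpd and Cpe, carboxypeptidases that trim basic residues, were found in 16 and 13 cells. The convertases of endocrine cells were rare: Pcsk1 was detected in 3 cells and Pcsk2 in none. Qpct, which forms the cyclic N-terminus that thyrotropin-releasing hormone carries, was detected in 4 cells and its relative Qpctl in 8. The 5 enzymes with enough cells had a median rho of 0.021 with Trh and 0.13 with Calca, beside medians of 0.052 and 0.029 over all 8843 genes compared.

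Transcripts for proteins of secretory granules were detected in few cells. In at least 25% of cells 0 of 11 genes were detected, against 37% of the 22499 symbols other than short RNAs. In at least 1 cell 9 were detected, for which no share over all symbols is given. Chga and Chgb, granins of endocrine and neural granules, were detected in 1 cell each, Scg3 in 2 and Scg5 in 3. Ptprn, a granule membrane protein, was found in the most cells, 9. Of the neuroendocrine regulators, Insm1 was detected in 1 cell, and Neurod1, Neurog3 and Nkx2-2 in none. On the same list Isl1, which is also on the cardiac and lateral plate list, was detected in 25 cells and Pax6 in 5. Isl1 had rho = -0.18 with Trh and -0.20 with Calca.

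Receptors for thyrotropin-releasing hormone were listed at 0 in every cell. This held for Trhr and Trhr2 and also for Trhde, an ectoenzyme that degrades the hormone. By the rule of 3 counts, which is not the exact interval given for the other shares, 0 of 48 cells allows a share of up to 6.25% by counting error. A listed 0 does not show that a transcript was lacking, since Tbp and Hprt, genes in general use, were listed at 0 in 5 and 13 cells. Pgpep1, a peptidase of the cytosol that can remove the cyclic N-terminus, was detected in 30 cells (median 2.26 FPKM).

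Parts of the receptors for the calcitonin family were detected. Calcrl, the receptor subunit shared by calcitonin gene-related peptide and adrenomedullin, was detected in 17 cells (highest value 35.5 FPKM). Ramp1, which turns Calcrl into the receptor for calcitonin gene-related peptide, stayed below 1 FPKM in every cell (highest value 0.625 FPKM). Ramp2, which turns it into an adrenomedullin receptor, was detected in 24 cells (highest value 106 FPKM), and Ramp3 in 3. Calcr, the calcitonin receptor, was detected in 2 cells, in 1 of them at 119.8 FPKM. Crcp, a receptor component with a further role in RNA polymerase III, was found in 41 cells. Calcrl had rho = -0.33 with Trh and -0.010 with Calca.

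Other peptide hormone genes were seldom seen. In the calcitonin family, Calcb, the neighbouring paralogue of Calca 82286 bases away (chr7:114718643-114723365, plus strand), and Iapp were listed at 0 in all cells, while Adm and Adm2 were detected in 2 cells each. Among 51 further hormone genes 2 reached 25% of cells, against 37% of the 22499 symbols other than short RNAs. Of the 51, 34 were detected in no cell, for which no share over all symbols is given. Nmb, the neuromedin B gene, was detected in 15 cells (highest value 47.6 FPKM). Gm10664, an older symbol of Apela, which encodes a ligand of the apelin receptor, was detected in 12 cells (highest value 292 FPKM). It had rho = 0.35 with Trh and 0.41 with Calca, and 7 of its 12 cells also had Calca. Apln and Gal were detected in 7 cells each and Penk in 8.

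The chromosomal neighbours of both genes were also read. Mrps25, the nearest gene with a row on one side of Trh, was detected in 45 cells and had rho = 0.23 with Trh. Prickle2, on the other side, was detected in 5 cells (highest value 13.2 FPKM). Cyp2r1 and Calcb, which flank Calca, were listed at 0 in every cell.

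Among 8843 other genes detected in at least 10 cells, 136 (1.54%) had a rho of 0.4 or more with Trh and 29 (0.328%) a rho of -0.4 or less. For Calca these were 115 (1.3%) and 27 (0.305%). Calca ranked 11 in likeness to Trh, and Trh ranked 12 in likeness to Calca. In all, 33 genes (0.373%) had a rho of 0.4 or more with both and 7 (0.0792%) a rho of -0.4 or less with both. The cells of such correlations share a library preparation and differ in the number of detected genes.

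The genes most like Trh began with Nanog (rho = 0.67), a homeodomain factor of pluripotent cells and the early epiblast. Nanog was detected in 46 cells (median 9.28 FPKM, highest value 189 FPKM). Cells C38, C39 and C79, highest in Trh, had 119, 161 and 126 FPKM of Nanog. Emb (embigin), a membrane partner of monocarboxylate transporters, followed at rho = 0.67, with a median of 119 FPKM and 1234 FPKM in cell C79. Next came Rbm47, an RNA-binding protein (0.63), Fam86 (0.60), Igfbp2, a binding protein of insulin-like growth factors (0.60), and Fgf5, a growth factor of the postimplantation epiblast (0.58). Zfp101 (0.57), the E-cadherin gene Cdh1 (0.56), 2210039B01Rik (0.56) and the semaphorin Sema4b (0.56) completed the first 10. Rbm47 was detected in 18 of the 35 cells with Trh and in 1 of the 13 without it.

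The gene most like Calca was Fgf5 (rho = 0.71). Fgf5 was detected in 15 cells (highest value 92.1 FPKM), and 11 of them were among the 14 cells with Calca. It was followed by Atp8a1, a phospholipid flippase (0.65), 1190007I07Rik (0.65), the guanine nucleotide exchange factor Arhgef26 (0.62) and keratin 18, Krt18 (0.62). Krt18, an intermediate filament of simple epithelia, was detected in all 14 cells with Calca and in 14 of the other 34. Ndufv2, a subunit of respiratory complex I (0.61), Fam38b, the mechanosensitive channel now called Piezo2 (0.61), Cdh1 (0.61), the nonmuscle myosin heavy chain Myh9 (0.61) and the claudin Cldn6 (0.60) came next. Cdh1 was detected in 11 of the 14 cells with Calca and in 7 of the other 34, and Cldn6 in 10 and 3.

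Some of the genes that ran against Trh also ran against Calca. Of the 20 lowest of each gene, 6 were shared, which is 30% of either list, and of the 20 highest 5 (25%), the genes themselves left out. Slc38a4, an amino acid transporter, had rho = -0.60 with Trh and -0.49 with Calca. Prtg (protogenin), an immunoglobulin superfamily protein detected in every cell between 42.7 and 300 FPKM, had -0.58 and -0.59. Vim, the mesenchymal intermediate filament vimentin, had -0.60 with Trh and -0.27 with Calca, and was listed at 0 in cell C79. G530011O06Rik (-0.51 and -0.54), Taok3 (-0.50 and -0.40), C530008M17Rik (-0.41 and -0.56) and the proteoglycan Vcan (-0.44 and -0.49) were the others among the lowest 5 of either gene. With each cell rescaled over all rows, Prtg had -0.17 with Trh and -0.39 with Calca, G530011O06Rik -0.19 and -0.38, and Vcan -0.37 with Calca, all short of -0.4. Over the cells with numbers above 48, G530011O06Rik had -0.35 with Trh and Slc38a4 -0.27 with Calca.

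**Figure D3:**
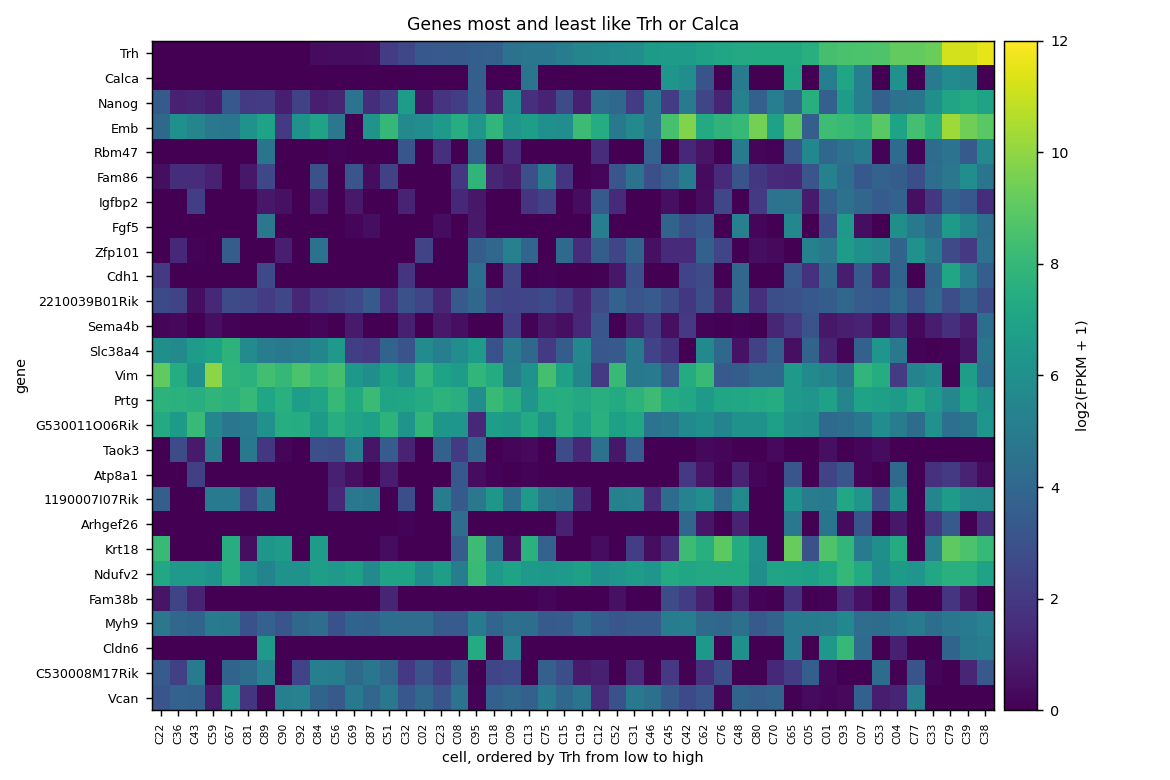
Levels of Trh, Calca and the genes most and least like them as log2(FPKM + 1), with genes in rows and the 48 cells in columns ordered from low to high Trh. Nanog, Emb, Fgf5, Cdh1 and Krt18 brighten toward the right, where Trh is high, while Vim and Slc38a4 fade.

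Epithelial genes correlated positively with both. Of 10, 5 were detected in at least 10 cells, with a median rho of 0.43 with Trh and 0.60 with Calca. The medians over all genes were 0.052 and 0.029. With Trh 4 of the 5 reached 0.3, and with Calca all 5 did (6.13% and 4.96% of all genes). Besides Krt18 and Cdh1 they were Epcam (0.50 with Trh and 0.33 with Calca), Krt8 (0.20 and 0.47) and Cldn6 (0.40 and 0.60). Tjp3 was listed at 0 in all cells, and the summed level of the 10 genes ran from 0 to 1139 FPKM over cells. The median with Trh was 0.56 over the cells with numbers up to 48 and 0.28 over the others.

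Pluripotency genes had a higher median rho with Trh than with Calca, 0.35 with Trh and 0.22 with Calca over 10 of 15 members. Of these, 6 reached 0.3 with Trh and 4 with Calca (6.13% and 4.96% of all genes). Dnmt3b, a de novo DNA methyltransferase, had 0.54 and 0.28, Dppa5a 0.46 and 0.15, Sox2 0.38 and 0.094, and Zfp42, a gene of naive cells, 0.32 and 0.078. Pou5f1, the core factor, was close in both, at 0.46 with Trh and 0.43 with Calca, and Lin28a had 0.15 and 0.38. Klf4 had 0.18 with Trh and -0.096 with Calca. Tbx3, which is also on the cardiac and lateral plate list, went the other way, at -0.21 and -0.28. Esrrb, Klf2 and Tfcp2l1 were detected in 6, 7 and 6 cells. The median with Calca was 0.066 over the cells with numbers up to 48. The summed level of the list ran from 40.6 to 4750 FPKM over cells. The difference between the medians was not tested.

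The endoderm list was read because Trh is known from that tissue. Among its 17 members 4 reached 25% of cells, a mark reached by 37% of the 22499 symbols other than short RNAs. Of the 17, 6 were detected in no cell, for which no share over all symbols is given. Foxa2, a forkhead factor of endoderm, node and axial mesoderm, was detected in 12 cells, all of them with Trh and 9 of them with Calca (rho = 0.49 with Trh and 0.55 with Calca). Hhex, of anterior endoderm and of blood precursors, had 0.24 and 0.35, and Cxcr4 0.0050 and -0.24. The defining factor Sox17 was detected in 1 cell, C39, at 6.94 FPKM, and Foxa1, Hnf4a, Afp and Apob in none. The summed level of the list ran from 0 to 339 FPKM over cells. Its median rho over the 4 members was 0.32 with Trh and 0.45 with Calca. With Trh the median was 0.51 over the cells with numbers up to 48 and 0.19 over the others. Cldn6, which is also on the epithelial list, was among the 4 members, with 0.40 and 0.60. The endoderm and epithelial medians are therefore not independent. Without Cldn6 the middle value of the remaining members was that of Hhex, 0.24 with Trh and 0.35 with Calca.

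Primitive streak genes gave a divided picture, with medians of 0.10 with Trh and 0.14 with Calca over 14 genes. Fgf5, Cer1, an extracellular inhibitor of Nodal signals, and Fgf8 reached 0.3 with Trh (0.58, 0.46 and 0.34). Over all genes 6.13% reached that mark. T (brachyury), detected in 26 cells, had rho = 0.15 with Trh and 0.50 with Calca, and was found in 13 of the 14 cells with Calca. Mixl1 had 0.069 and 0.17. Mesp1, the induced gene, had -0.17 with Trh and -0.33 with Calca, and was detected in 5 of the 14 cells with Calca. Otx2, a head and epiblast homeobox gene, was the only neurectoderm member detected in 10 cells or more, with 0.43 and 0.38.

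Mesoderm lists had negative medians, with a minority of members at -0.3 or less. The cardiac and lateral plate list had a median rho of -0.21 with Trh and -0.25 with Calca over 10 genes, of which 2 and 4 were at -0.3 or less (1.96% and 1.98% of all genes). Hand1 had -0.43 and -0.45, Bmp4 -0.39 and -0.32, and Pdgfra -0.24 and -0.42, while Gata6 had 0.089 and 0.032. The cardiac median with Trh was -0.32 over the cells with numbers up to 48 and -0.065 over the others. Hand1 was detected in 3 of the 14 cells with Calca, and was listed at 0 in C38, C39 and C79. The paraxial list had medians of -0.23 and -0.24 over 8 genes, and its median with Trh was 0.070 over the 23 cells at sites above 48. Its lowest member with Trh was the retinoic acid-producing enzyme Aldh1a2 (-0.35, and -0.41 with Calca). With Calca it was Foxc1 (-0.42, and -0.26 with Trh). Without the 2 cells highest in Trh, 0 lists had a median of -0.2 or less with Trh, against 3 over all cells. Mesenchymal genes had medians of -0.13 and -0.20 over 10, of which 2 and 3 were at -0.3 or less (1.96% and 1.98% of all genes). Fn1 had -0.41 and -0.39, whereas Cdh2 had -0.088 with Trh and 0.20 with Calca, and Prrx2 -0.0025 and -0.18. The mesenchymal median with Trh was -0.37 over the cells with numbers up to 48 and -0.055 over the others. The endothelial and blood list had medians of -0.21 and -0.028 over 7, and its members differed. Kdr, a receptor of vascular progenitors, had -0.33 with Trh and -0.35 with Calca, whereas Flt1, another vascular growth factor receptor, had 0.23 and 0.22 and Egfl7 0.22 and 0.17.

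The remaining lists were also recorded. The G2 and M phase list had medians of 0.087 with Trh and -0.048 with Calca over 15 genes, and housekeeping genes 0.021 and 0.046 over 12. The germ cell list had 0.0058 and -0.20 over 3 genes, the Calca value being at the -0.2 mark, and the extraembryonic list -0.13 and -0.049 over 4. Genes that respond to cAMP and CREB had -0.13 and -0.18 over 5, with Crem at -0.42 and -0.18 and Egr1 at -0.18 and -0.30. The median of this cAMP list with Trh was -0.43 over the cells with numbers up to 48 and 0.094 over the others. With Trh, the medians of the G2 and M phase, housekeeping, germ cell, extraembryonic and cAMP lists each changed sign in at least 1 of the alternatives tried.

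**Figure D4:**
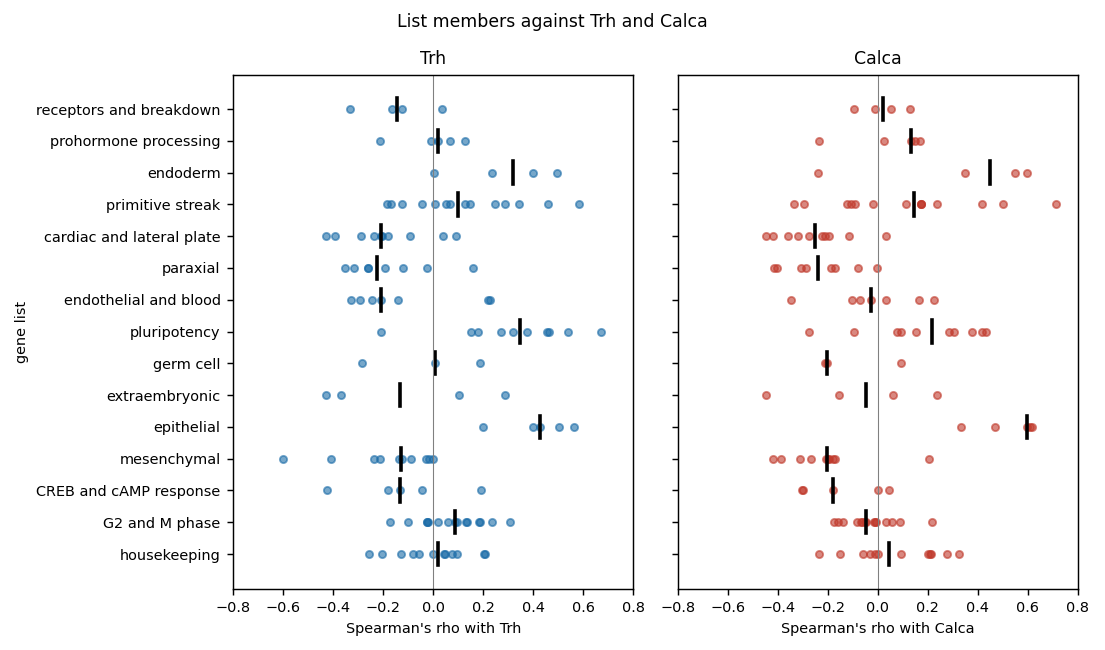
Spearman's rho over 48 cells of each list member with Trh (left) and with Calca (right), 1 point per gene detected in at least 10 cells, for lists with at least 3 such genes. Black bars are list medians, which are highest for the epithelial list (0.43 and 0.60).

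The 3 cells highest in Trh were not alike in other genes. All had Nanog above 100 FPKM, Krt18 at 259, 382 and 520 FPKM in C38, C39 and C79, and Eomes at 99.8, 86.4 and 77.2 FPKM, and all listed Mesp1, Hand1 and Pdgfra at 0. Dppa5a, a gene of pluripotent cells, was at 2591 FPKM in C38, 555 FPKM in C39 and 0.953 FPKM in C79. Cer1 was listed at 0 in C38, at 1435 FPKM in C39 and at 91.7 FPKM in C79. T was listed at 0 in C38, at 15.6 FPKM in C39 and at 396 FPKM in C79, and Foxa2 at 14.4, 1.56 and 103.6 FPKM. Very high Trh thus stood beside high Dppa5a without T or Cer1 in C38, beside high Cer1 in C39 and beside high T and Foxa2 in C79. Cell C93, highest in Calca, had 119 FPKM of T, 191 FPKM of Otx2 and 99.3 FPKM of Nanog.

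**Figure D5:**
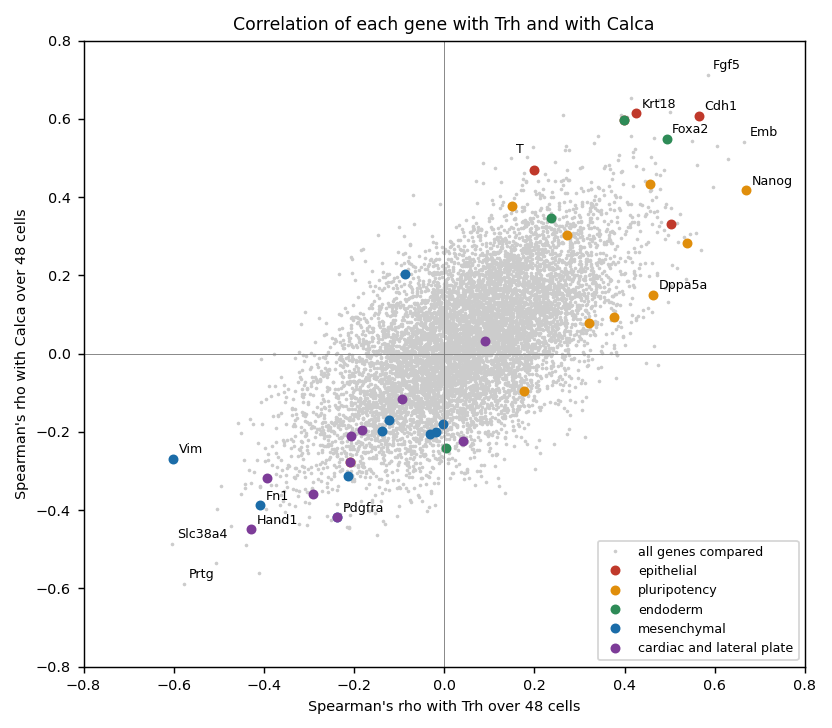
Spearman's rho over 48 cells with Trh (horizontal) and with Calca (vertical) for 8842 genes (grey), with members of 5 lists in colour. A gene on several lists takes the colour of the last drawn, as Cldn6 does for endoderm. Epithelial members lie at the upper right, and Vim, Fn1 and Hand1 at the lower left.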

How the data were processed

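Single-cell RNA-seq values of 48 cells in 1 group were read from 1 deposited table. The values were treated as FPKM made by the authors: per the submitters' processing notes CASAVA 1.8.2, TopHat and Cufflinks 2.2.1.0 were used with mm10, in an order not given there, and the table names no unit. Its 23746 rows gave 23284 symbols, with rows of 240 repeated symbols summed. The table holds no counts, so depth is unknown and no error of a single level is given; shares carry 95% intervals for counting error. No doublet caller was run and no cell was removed. With 1 group and no named cultures, nothing was tested.

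Correlations used log2(FPKM + 1) over genes detected in at least 10 cells, without 785 short RNA symbols recognised by name; ranks do not depend on the pseudocount. All 279 genes of 20 lists matched, 3 under older symbols in RefSeq GRCm38.p6, which also gave the promoters; positions are from GENCODE M21. Members, lists and thresholds were chosen with earlier results of these data known. Named genes were Trh, Calca, their family, receptors and neighbours, Mesp1, the 10 highest and 5 lowest by rho, and per list up to 4 members in most cells and 3 with the largest absolute rho. Others (such as Sox17, Foxa1, Hnf4a, Afp, Apob, Tjp3, Insm1, Neurod1, Chga, Scg5, Pcsk1, Qpct, Esrrb, Klf2, Tfcp2l1, Gata6, Flt1, Egfl7, Tbp and Hprt) and the values in single cells were chosen after values were seen. The correlation procedure was tested on simulated data. Analyses used Python 3.11.15, pandas 2.3.3, numpy 2.4.6 and scipy 1.17.1.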

Additional observations from a re-analysis of the deposited data

How the results depend on the processing

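Of 120 alternatives for a main count, share, level or rho, 96 stayed within tolerance. The tolerance was the 95% interval of a share, 1.5-fold of a count or level, or 0.1 of a rho. Some of the 120 could not have moved their value. The Calca median could not leave 0, since 34 of 48 cells listed the gene at 0. The share of cells with Calca at 0.1 FPKM was fixed too, with no value between 0 and 1 FPKM. Others concern the share of cells with Calca that also had Trh. In each of 6 alternatives 100% of the cells with Calca also had Trh. Only detection at 10 FPKM and rescaling without short RNAs could have changed this. Using fewer cells could not lower a share of 100%. Detection at 0.1 FPKM could not either, since no cell had Calca between 0 and 1 FPKM. The rho between Trh and Calca ran from 0.48 to 0.63. Trh was detected in 88% of cells at sites up to 48 and in 56.5% at higher sites. Its median was 76.1 (37.7 FPKM as deposited) with each cell rescaled to 1000000 without short RNAs. Genes at 0.4 or more with Trh numbered 450 at sites up to 48 and 408 at higher sites, and with Calca 357 and 494. Genes at -0.4 or less numbered 245 and 176 for Trh and 225 and 313 for Calca. These counts rest on 25 and 23 cells, and the part played by fewer cells was not tested. For Trh the count at -0.4 or less was 7 with rescaling over all rows, 77 without 7 cells with few detected genes, 52 after regression on detected genes and 44 after regression on the site number. With rescaling over all rows Calca had 74 genes at 0.4 or more and 15 at -0.4 or less, and with no filter on cells 186 at 0.4 or more, since more genes entered. Lists with a median of -0.2 or less were 3 for Trh and 4 for Calca. For Trh they became 1 with rescaling over all rows, 6 at sites up to 48, 1 at higher sites and 0 without the 2 highest cells, and for Calca 2 with Pearson's r and 2 with rescaling over all rows. The paraxial median with Trh changed sign to 0.070 at higher sites. No cause of these changes was tested. Of 270 values of the most and least like genes, 238 stayed within 0.1 and none changed sign. These genes were picked for a large rho in the same cells, so the unchanged signs are no support. Another pseudocount and another handling of repeated symbols were also run but cannot move these values and are not counted. Of the 10 genes most like Trh, 3 remained among the first 10 at sites up to 48 and 3 at higher sites, and for Calca 1 and 5, so the order of names depends on the cells used. No paired analysis was possible because all cells form 1 group. Precision is limited by 48 cells, 14 of them with Calca, and by unknown depth.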

Other observations

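Some genes differed most between their rho with Trh and their rho with Calca over the 48 cells, a choice made after the values were seen. Rabif had 0.31 with Trh and -0.21 with Calca, and Fam161b 0.47 and -0.028. In the other direction Actg1, a cytoskeletal actin, had -0.070 with Trh and 0.41 with Calca, and Hspa5, a chaperone of the endoplasmic reticulum, had -0.15 and 0.30. Across 8842 genes, which are not independent replicates and share the same cells, the correlation of the rho with Trh and the rho with Calca was r = 0.63.

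Of the 11 genes found in 12 to 16 cells and in none without Trh, the remaining ones beside Foxa2 and Sema4b were 2210009G21Rik, Adck1, Atmin, Fam105b, Man2c1, Map4k3, Mlh3, Nup210 and Porcn.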
